A study of Mus musculus with 8 samples.

Results

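Chemokines and their receptors were followed in mouse thoracic aorta with and without Fto. Members were all genes whose symbol begins with Ccl, Cxcl, Ccr, Cxcr or Ackr and a digit, together with Cx3cl1, Cx3cr1, Xcl1 and Xcr1. A RefSeq gene table lists 67 such genes, and the array carried probes with a matching transcript for 57 of them, among 21368 genes named in this way. These 57 genes were read by 69 of the 55681 probes. No probe matched Ccl16-ps, Ccl19-ps1, Ccl19-ps2, Ccl19-ps3, Ccl21a, Ccl21b, Ccl21c, Ccl21d, Ccl27b or Cxcl11.

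Chemokines are small secreted proteins that direct the migration of leukocytes through G protein-coupled receptors, and their families are named for the spacing of conserved cysteines. Atypical receptors bind chemokines without the usual G protein signalling and can take up or transport them. In a vessel wall, chemokines can come from endothelium, smooth muscle, adventitial fibroblasts, fat around the vessel and resident macrophages.

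The study asked how the aorta differs between mice lacking Fto, which encodes an RNA demethylase, and mice that carry it. RNA of 4 Fto -/- samples and 4 Fto +/+ samples was labelled with Cy3 and read on 1 array each, in all cases from C57BL6J/NMRI mice given as male. The labels state neither the age of the mice nor whether each sample is a separate animal, so p-values cover only the spread between these samples, which may be technical. The labels do not say how the Fto allele was made.

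A level here is the log2 of a probe's background-subtracted intensity relative to the 75th percentile of its array, and SDs and means are over 4 arrays unless stated. The Fto probe had levels of -2.52, -2.19, -2.56 and -2.77 in Fto -/- samples 1 to 4 and of 0.61, 0.86, 0.47 and 0.35 in Fto +/+ samples 1 to 4. It fell 8.47-fold (log2 difference -3.08 ± 0.15 SE, limma adjusted p = 0.000402), which follows the genotype field of the labels. An exact permutation test over 70 regroupings of the samples gave p = 0.0286. The probe was still well above background on all 4 Fto -/- arrays. The free-text description of each sample names the other genotype. Both Xist probes were above background on all 8 arrays, whereas 6 probes of 5 Y-linked genes were above background in 1 of 48 readings, which goes against the label male on every array. Between arrays the 75th percentile of intensity ran from 294 to 415, and 44.5% to 47.7% of probes were well above background. Of the labelled tissue, 7 of 7 smooth muscle markers and 9 of 9 endothelial markers passed the detection filter used for the comparison. Thymocyte genes differed between arrays: Rag1, needed for antigen receptor rearrangement, was above background on Fto -/- samples 1, 3 and 4 and on Fto +/+ sample 2 only. On the slide, Fto -/- samples 1, 2 and 3 shared row 1 with Fto +/+ sample 1, and the other 4 arrays shared row 2.

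Of the 57 chemokine system genes, 20 were well above background on all 8 arrays and 21 on none. By array, 32, 23, 31 and 30 of them were above background in Fto -/- samples 1 to 4 and 24, 24, 22 and 21 in Fto +/+ samples 1 to 4. Only Fto -/- sample 2 lay within the Fto +/+ range. Of all probes, 47.7%, 45.9%, 45.9% and 45.6% were above background in the Fto -/- samples and 45.2%, 44.6%, 44.9% and 44.5% in the Fto +/+ samples. Detection was thus higher in Fto -/- over the whole array, and not in this family alone. Whether the difference over the whole array accounts for that of the family was not tested. For the comparison of genotypes a probe had to be above background on 4 or more arrays, counted over both genotypes together, a filter that 26 genes (33 probes) passed. Among the CC ligands 12 of 20 passed, each of them on all 8 arrays. Of the CXC ligands 4 of 12 passed (Cxcl1, Cxcl9, Cxcl12 and Cxcl16). Classical receptors were mostly at background: 2 of 11 CC receptors (Ccr2 and Ccr9) and 2 of 6 CXC receptors (Cxcr3 and Cxcr6) passed. All 4 atypical receptors passed. Cx3cl1 and its receptor Cx3cr1 passed, whereas Xcl1 and Xcr1 did not.

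The genes above background on no array include 5 CXC ligands (Cxcl2, Cxcl3, Cxcl5, Cxcl15 and Cxcl17), several of which attract neutrophils, and the neutrophil receptors Cxcr1 and Cxcr2. They include 6 CC ligands (Ccl1, Ccl4, Ccl20, Ccl22, Ccl26 and Ccl28) and 5 CC receptors (Ccr1, Ccr1l1, Ccr3, Ccr4 and Ccr8). Cxcr5, the B cell follicle receptor, was also above background on none. Such a reading gives only a bound on the level.

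The remaining 10 genes were above background on 1 to 3 arrays and were not tested, 7 of them in Fto -/- samples only and 1 in Fto +/+ samples only. This split was not counted over all genes, and every Fto -/- array read more of all probes than any Fto +/+ array. Ccl17, a ligand of Ccr4, was above background on 3 Fto -/- arrays and 0 Fto +/+ arrays. Its intensities were 143, 29.9, 49.1 and 58.3 in the Fto -/- samples and 18.2, 9.41, 8.53 and 9.85 in the Fto +/+ samples. All 4 Fto -/- samples were brighter. Their mean was 1.91-fold above the lowest signal that counts as above background on the Fto +/+ arrays. That floor is not a strict limit, since probes not above background can read higher. Cxcl14 was above background on 2 Fto -/- arrays and 0 Fto +/+ arrays, with levels of -2.72, -3.62, -1.47 and -3.03 against -5.19, -4.91, -3.55 and -5.16, which overlap through Fto -/- sample 2 and Fto +/+ sample 3. Cxcl13, the ligand of Cxcr5, and Ccr7, the receptor of Ccl19, were each above background on 2 Fto -/- arrays and 0 Fto +/+ arrays. Cxcl10, Ccr6 and Cxcr4 were so on 1 and 0. Ccr10 was above background on 1 Fto -/- array and 2 Fto +/+ arrays, and Ccl3 on 0 and 1.

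**Figure D1:**
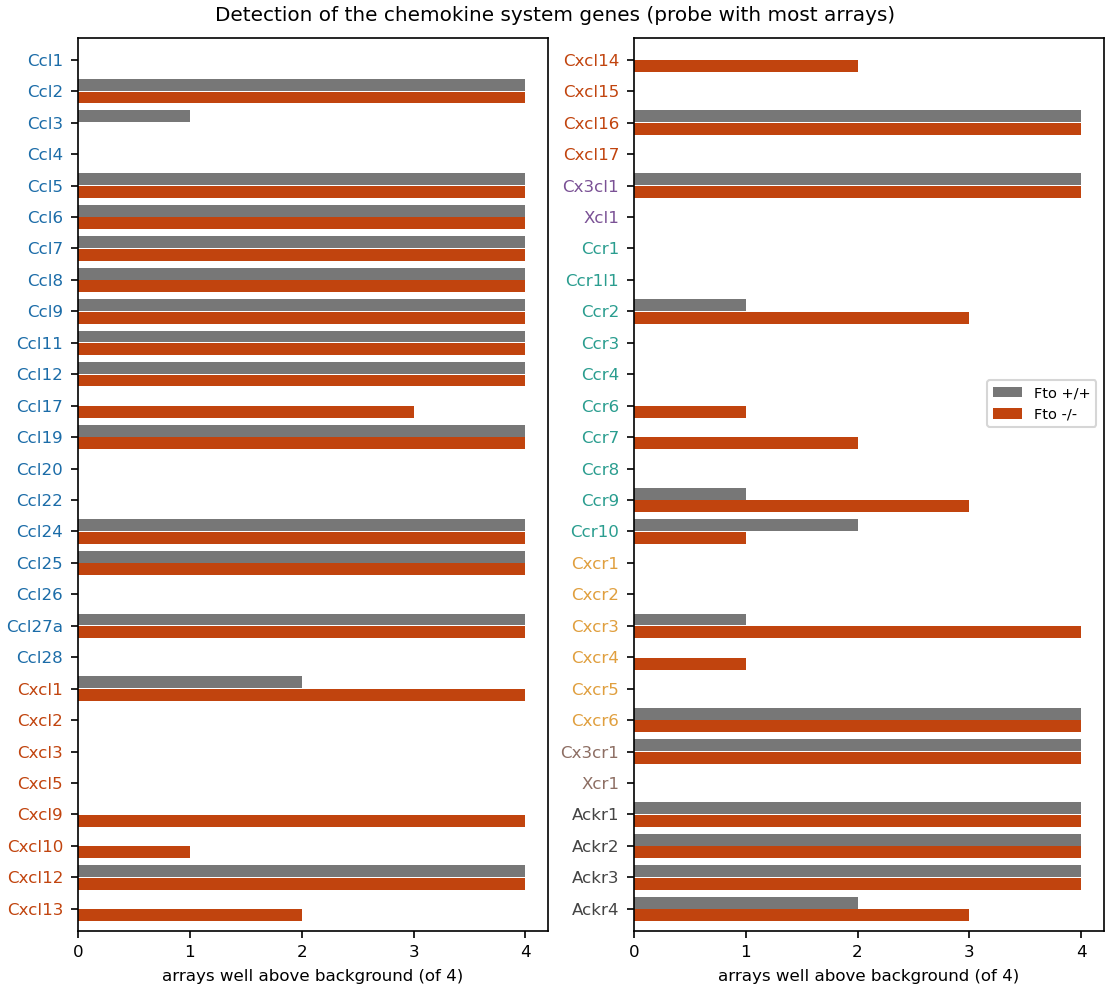
Number of arrays (of 4 per genotype) on which each of 56 chemokine system genes was well above background, by its best-detected probe; gene names are coloured by role. Bars of full length in both genotypes mark the 20 genes read on all 8 arrays, and Cxcl9 reaches 4 Fto -/- arrays and 0 Fto +/+ arrays.

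Of the 26 tested genes, Ccl19 and Ackr1 rose in the Fto -/- aorta and 0 fell (limma, p adjusted by Benjamini-Hochberg over 25292 tested probes, threshold 0.05). At the same threshold 1.66% of all tested probes were called, and of all 13053 tested named genes 0.896% were called higher and 0.896% lower. At an unadjusted p under 0.05 were 10 member genes, all of them higher, beside 8.71% of named genes that were higher and 11.9% that were lower. The fitted difference was above 0 for 21 members and below 0 for 5, against 43.9% of named genes above 0. The member median was 0.61 on the log2 scale, against -0.04 over all named genes. In 7 members every Fto -/- sample lay above every Fto +/+ sample, and in 0 below, where 4.95% of named genes lay wholly above and 8.92% wholly below. Detection enters these counts, since the filter can admit a gene through the genotype in which it is brighter. Of the 6 members above background on 4 to 7 arrays (Cxcl1, Cxcl9, Ccr2, Ccr9, Cxcr3 and Ackr4), 6 had a fitted difference above 0. Among the 20 read on all 8 arrays, 15 were above 0, 4 did not overlap, and the median was 0.47. The median over all 22211 probes so read was -0.026. The shares above 0 and without overlap were not counted over all named genes read on all 8 arrays.

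**Figure D2:**
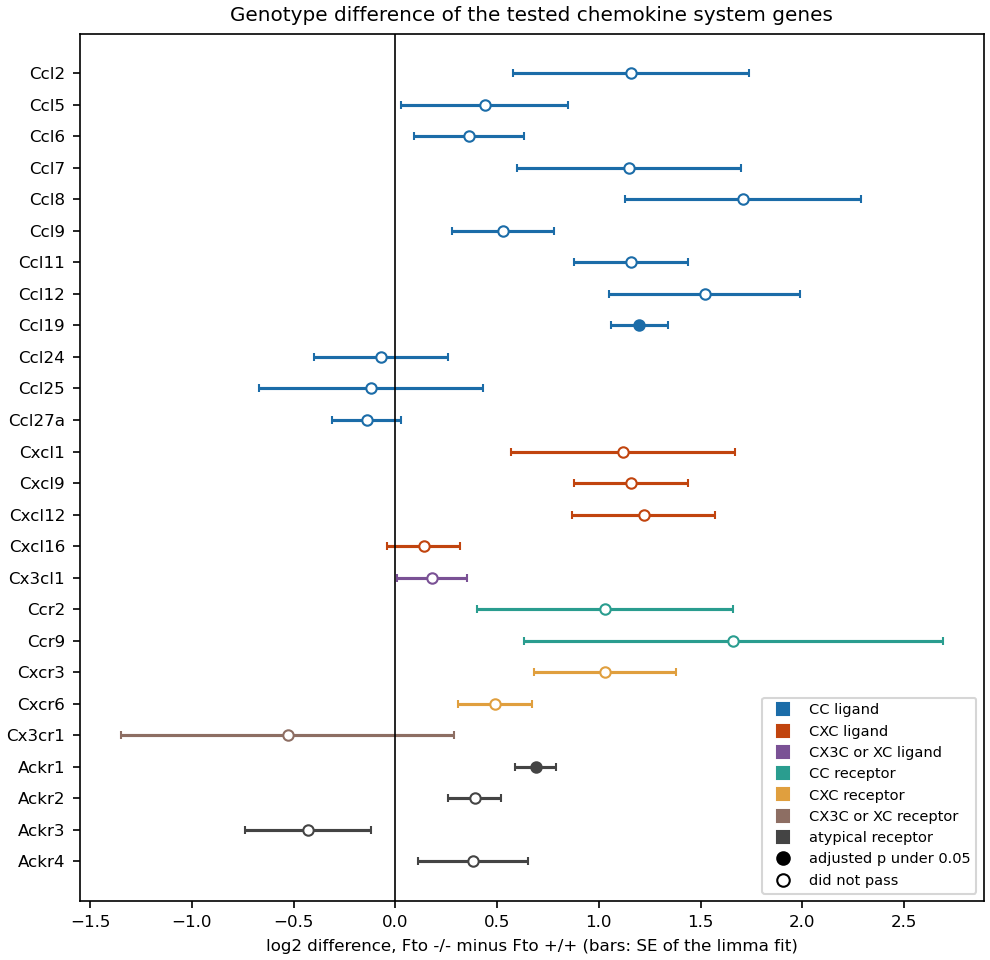
Fitted log2 difference (Fto -/- minus Fto +/+) of the 26 tested chemokine system genes by the probe that stands for each, with the SE of the limma fit as bars and colour by role. Filled points mark Ccl19 (1.20) and Ackr1 (0.69), which passed the threshold; 5 points lie left of 0.

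Ccl19 and Ackr1 are shown first by the 250 bases before their transcription start, since they are the members that rose, together with Ccl12 and Ccl8, neighbours on chromosome 11 with the largest fitted differences among the CC ligands. The sequences are those of the RefSeq table for build GRCm38.p6, given on the strand of the gene. Capitals mark the letters GAAANNGAAA (an interferon-stimulated response element, ISRE) in Ccl19, and in the other genes the TATA box letters TATAAA, or in Ackr1 a run of the variant that has T in place of the fifth letter A. The stretches lie at chr4:42756366-42756615 (minus strand) for Ccl19, chr1:173333504-173333753 (minus strand) for Ackr1, chr11:82101595-82101844 (plus strand) for Ccl12 and chr11:82114935-82115184 (plus strand) for Ccl8.
Ccl19: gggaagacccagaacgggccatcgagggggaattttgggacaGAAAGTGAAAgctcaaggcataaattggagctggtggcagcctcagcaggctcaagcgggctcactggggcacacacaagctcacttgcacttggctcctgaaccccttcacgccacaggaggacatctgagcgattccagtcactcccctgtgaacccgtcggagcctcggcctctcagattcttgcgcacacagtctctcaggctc
Ackr1: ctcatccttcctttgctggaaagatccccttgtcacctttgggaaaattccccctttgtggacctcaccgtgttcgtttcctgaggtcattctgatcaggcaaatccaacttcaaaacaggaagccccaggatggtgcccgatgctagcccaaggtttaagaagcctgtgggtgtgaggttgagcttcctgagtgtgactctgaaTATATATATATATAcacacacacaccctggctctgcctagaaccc
Ccl12: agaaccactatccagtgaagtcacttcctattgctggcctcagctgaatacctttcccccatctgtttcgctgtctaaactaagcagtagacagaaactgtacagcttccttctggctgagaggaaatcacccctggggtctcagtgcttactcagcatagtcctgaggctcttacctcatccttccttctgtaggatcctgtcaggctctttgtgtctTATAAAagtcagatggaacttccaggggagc
Ccl8: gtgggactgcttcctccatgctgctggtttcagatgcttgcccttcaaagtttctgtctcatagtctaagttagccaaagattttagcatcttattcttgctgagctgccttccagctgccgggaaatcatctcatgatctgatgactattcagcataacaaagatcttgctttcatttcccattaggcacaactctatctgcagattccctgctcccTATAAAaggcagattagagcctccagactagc

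Both strands of 250 bases were searched in the 20 of 26 tested members that the table holds. The ISRE letters were found in 1 of these members, Ccl19, and in 2.98% of 32851 promoters. They were 1 of several patterns searched. The letters of a kappaB site were found in 3 members (Ackr2, Ccl9 and Cxcl1) and in 7.25% of all promoters. Those of an AP-1 site were in 2 members (Ccl27a and Ccl9) and 6.75%, and those of a gamma-activated site in 0 members and 7.02%. Either form of the TATA box letters, TATAAA and TATATA, was found in 9 members and in 15.6% of all promoters. Counted from the transcription start, matches began at -31 in Ccl12, -32 in Ccl8 and -45 to -37 in Ackr1. Elsewhere they began at -195 (Cxcl9), -185 (Ackr4), -224, -94 and -92 (Ccl9), -16 (Ccl25), -10 and -8 (Ackr3) and -6 (Cx3cl1). The count of 9 thus takes in matches at any distance from the start. In Ackr1 several copies overlap. A match to letters is not a measured binding site.

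Ccl19, which guides T cells and dendritic cells carrying Ccr7, rose 2.3-fold. Its level was 3.11, 3.26, 3.37 and 3.30 in Fto -/- samples 1 to 4 and 2.33, 1.95, 2.22 and 1.74 in Fto +/+ samples 1 to 4. The genotypes did not overlap, and the Fto -/- samples lay close together (3.26 ± 0.11 SD against 2.06 ± 0.27 SD, n = 4 each). The log2 difference was 1.20 ± 0.14 SE (limma adjusted p = 0.0101). Ccl19 was read by 3 probes to the same transcript, and all 3 passed without overlap: the other probes differed by 1.19 ± 0.22 (adjusted p = 0.0434) and 1.18 ± 0.20 (adjusted p = 0.0317). The probe that stands for the gene, the one of highest mean, kept its call whichever array was left out (1.09 to 1.29). The other probes kept theirs in 1 and 2 of those 8 fits. With slide row as a block the difference was 1.12 (adjusted p = 0.0619), and within rows 1 and 2, each 3 arrays against 1, it was 0.91 (0.487) and 1.33 (0.585). Probe sequences were not used here, so signal from the Ccl19 pseudogenes, which lie on the same chromosome, cannot be told apart from that of Ccl19. Its neighbour Ccl21a, the other Ccr7 ligand, had no matching probe.

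Ackr1, the Duffy antigen receptor that binds many inflammatory chemokines on venular endothelium and red cells, rose 1.61-fold. Its level was -1.69, -1.69, -1.68 and -1.74 in the Fto -/- samples and -2.48, -2.49, -2.17 and -2.40 in the Fto +/+ samples. The probe was dim but above background on all 8 arrays (intensity 91.6 to 115 in Fto -/- and 60.4 to 84.7 in Fto +/+), and the genotypes did not overlap. The log2 difference was 0.69 ± 0.10 SE (limma adjusted p = 0.0189). The call was lost without Fto -/- sample 1 (0.68, adjusted p = 0.0584), Fto -/- sample 3 (0.68, 0.0667), Fto -/- sample 4 (0.70, 0.0632) or Fto +/+ sample 1 (0.65, 0.0624). With another background correction (normexp) the difference was 0.37 (0.0571), without a filter on dim probes 0.69 (0.0655), and with slide row as a block 0.70 (0.0912); within the rows it was 0.79 (0.489) and 0.62 (0.908).

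On chromosome 11 the CC ligand genes Ccl2, Ccl7, Ccl11, Ccl12 and Ccl8 follow each other with 0 protein-coding genes between them. They encode attractants of monocytes (Ccl2, Ccl7, Ccl12 and Ccl8) and eosinophils (Ccl11). Their fitted differences ran from 1.15 to 1.71 on the log2 scale and 0 of 5 passed the threshold.

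Ccl11, or eotaxin, had levels of 1.69, 1.10, 0.88 and 1.50 in the Fto -/- samples and 0.17, 0.33, 0.64 and -0.60 in the Fto +/+ samples. Every Fto -/- sample lay above every Fto +/+ sample (1.29 ± 0.37 SD against 0.13 ± 0.53 SD). The difference was 1.16 ± 0.28 SE and missed the threshold (limma adjusted p = 0.0818). With array weights it was 1.03 and passed (0.0425), but of 22 alternatives only 2 passed. With slide row as a block it was 1.22 (0.21), and 0 of 8 fits without 1 array passed. Ccl12 had levels of 1.46, -0.34, -0.07 and 1.13 against -0.82, -0.92, -0.26 and -1.91, which overlap through Fto -/- sample 2 and Fto +/+ sample 3. Its difference was 1.52 ± 0.47 SE (limma adjusted p = 0.143). Ccl8 had levels of 2.30, 0.59, 1.19 and 3.31 against 0.34, 0.60, 0.48 and -0.86. Fto -/- sample 2 lay among the Fto +/+ samples, and the fitted difference, 1.71 ± 0.58 SE, did not pass (limma adjusted p = 0.17).

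Ccl2, the main monocyte attractant, was read by a probe spotted 10 times per array. Its levels were 1.68, -1.36, -0.34 and 0.09 in the Fto -/- samples and -0.66, -1.90, -0.94 and -1.06 in the Fto +/+ samples. Ccl7 had levels of 0.81, -2.12, -0.74 and 0.05 against -1.51, -1.86, -1.18 and -2.06. In both genes Fto -/- sample 1 was highest, and Fto -/- sample 2 lay within or below the Fto +/+ range. The differences were 1.16 ± 0.58 SE (adjusted p = 0.319) for Ccl2 and 1.15 ± 0.55 SE (0.299) for Ccl7 by limma, so the spread within Fto -/- (SD 1.27 and 1.25) was as large as the difference. Without Fto -/- sample 1 the differences were 0.60 and 0.72.

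A second group on chromosome 11 holds Ccl5, Ccl9 and Ccl6, again with 0 protein-coding genes between them. Ccl9 had levels of 2.99, 2.42, 2.29 and 2.66 in the Fto -/- samples and 1.97, 2.12, 2.67 and 1.47 in the Fto +/+ samples. Fto +/+ sample 3 lay within the Fto -/- range, and the difference of 0.53 ± 0.25 SE did not pass (limma adjusted p = 0.296). Ccl6, a macrophage-made ligand, differed by 0.36 ± 0.27 SE and Ccl5, made by T cells and platelets among others, by 0.44 ± 0.41 SE (limma adjusted p 0.499 and 0.593).

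Other CC ligands stood at differences near 0. Ccl24 (eotaxin-2) differed by -0.07 ± 0.33 SE and Ccl25, the thymic and gut ligand of Ccr9, by -0.12 ± 0.55 SE (limma adjusted p 0.932 and 0.925). Ccl25 ran from -2.78 to -0.10 in the Fto -/- samples, so its spread (SD 1.27) covers the Fto +/+ range of -1.86 to -1.15. Ccl27a was read by 3 tested probes that did not read alike. The probe of highest mean differed by -0.14 ± 0.17 SE and a probe to another transcript by -0.06 ± 0.18. The third had levels of 0.67, 0.39, 0.60 and 0.61 in the Fto -/- samples and 0.83, 1.04, 0.96 and 1.07 in the Fto +/+ samples. By that probe all Fto -/- samples were lower, by -0.41 ± 0.10 SE, which did not pass (limma adjusted p = 0.0896). The gene table also lists Ccl27b, a near copy without a matching probe, so the signal cannot be given to Ccl27a alone.

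**Figure D3:**
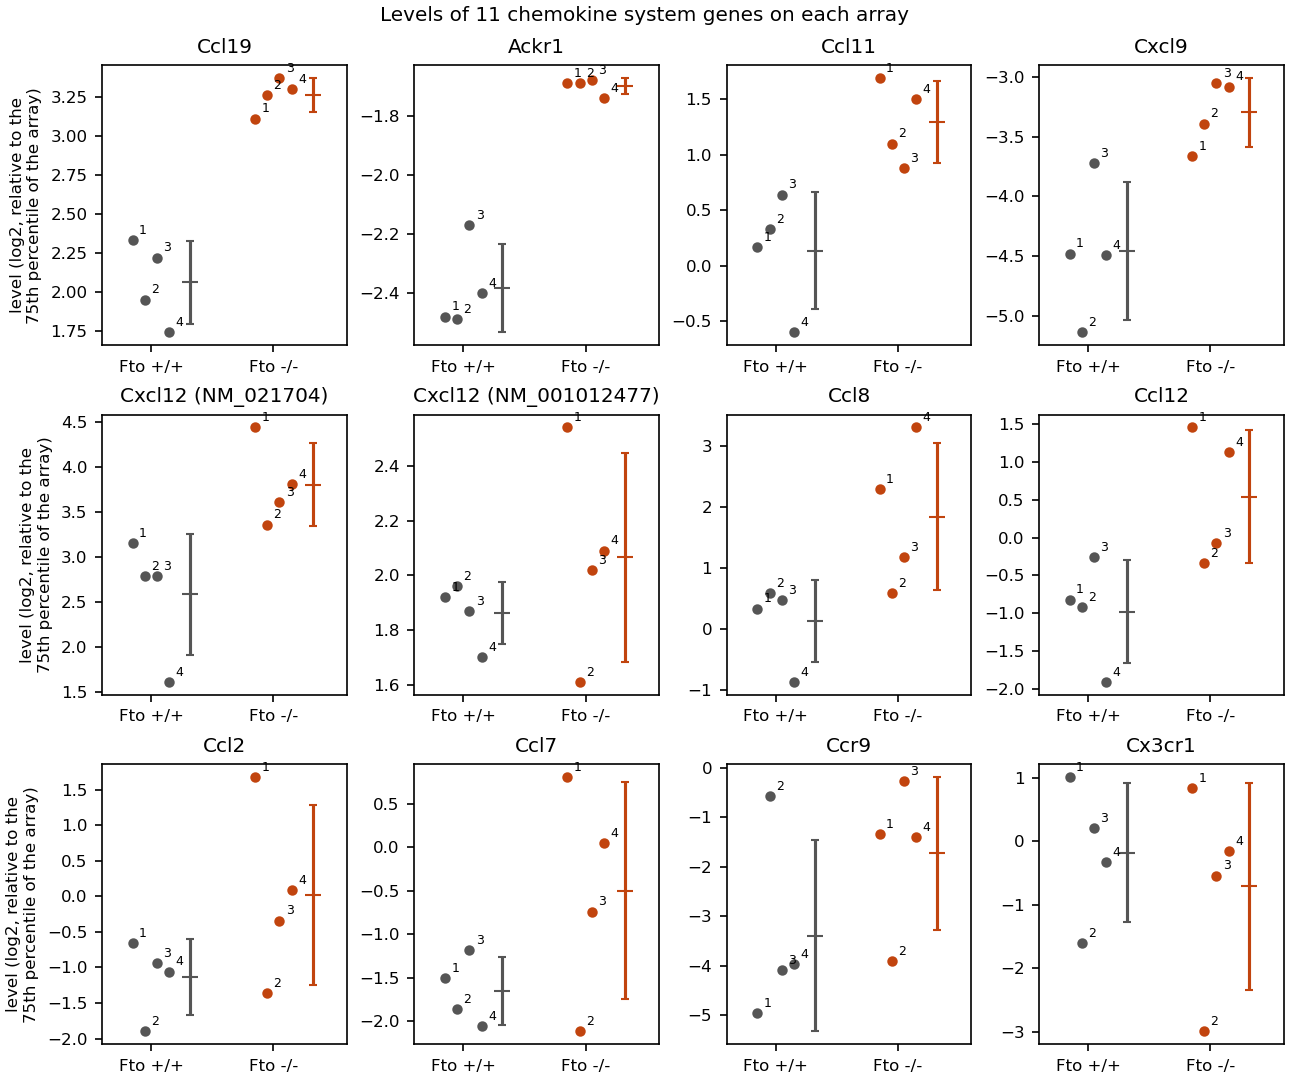
Level (log2 relative to the 75th percentile of the array) of 11 chemokine system genes on each array, with the replicate number beside each point and the mean ± SD of 4 arrays as a bar; axes differ between panels and Cxcl12 is shown by both probes. Ccl19, Ackr1, Ccl11, Cxcl9 and the NM_021704 probe of Cxcl12 separate the genotypes, whereas Ccl2, Ccl7, Ccr9 and Cx3cr1 spread widely within them.

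None of the 4 tested CXC ligands passed, although all 4 had fitted differences above 0. Cxcl12, which holds cells bearing Cxcr4 in place, was read by a probe to NM_021704 and a probe to NM_001012477. The first had levels of 4.44, 3.36, 3.61 and 3.81 in the Fto -/- samples and 3.15, 2.79, 2.79 and 1.61 in the Fto +/+ samples. All Fto -/- samples lay above all Fto +/+ samples, and the difference of 1.22 ± 0.35 SE did not pass (limma adjusted p = 0.118). The second probe had levels of 2.54, 1.61, 2.02 and 2.09 against 1.92, 1.96, 1.87 and 1.70, which overlap, with a difference of 0.20 ± 0.18 SE (0.585). Within each array the first probe exceeded the second by 1.90, 1.76, 1.59 and 1.72 in the Fto -/- samples and by 1.23, 0.84, 0.92 and -0.09 in the Fto +/+ samples. The gap between the Cxcl12 probes was thus wider in every Fto -/- sample (mean 1.74 against 0.72), a contrast chosen after the values were seen and given without a test.

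Cxcl9, an interferon-induced ligand of Cxcr3, was above background on 4 Fto -/- arrays and on 0 Fto +/+ arrays. Its levels were -3.66, -3.39, -3.05 and -3.08 in the Fto -/- samples and -4.48, -5.14, -3.72 and -4.49 in the Fto +/+ samples. The genotypes did not overlap, but no Fto +/+ reading counted as above background. Against the lowest level that does, the Fto -/- mean was 1.09-fold higher, which is not a strict bound. The fitted difference was 1.16 ± 0.28 SE (limma adjusted p = 0.0834). Cxcl9 met the detection filter through its Fto -/- arrays alone, so this fit sets signal against readings not above background. A pass where Fto +/+ sample 3 was left out (1.41, limma adjusted p = 0.0429) is therefore not counted as support for a rise. The other Cxcl9 probe was above background on 1 array. Cxcl1, a neutrophil attractant, had levels of -2.42, -2.66, -2.54 and -2.39 against -2.87, -5.53, -2.79 and -3.28. The groups did not overlap, and Fto +/+ sample 2 lay far below the others. The difference of 1.12 ± 0.55 SE did not pass (limma adjusted p = 0.31) and was 0.48 without that sample. Cxcl1 was above background on 4 Fto -/- arrays but 2 Fto +/+ arrays, so the size of its difference is uncertain. With normexp it was 0.42. Cxcl16, the membrane-bound ligand of Cxcr6, differed by 0.14 ± 0.18 SE and Cx3cl1 (fractalkine), the endothelial ligand of Cx3cr1, by 0.18 ± 0.17 SE (limma adjusted p 0.697 and 0.589).

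Among the receptors of the classical kind, 0 of 5 tested genes passed. Cxcr3, carried by activated T cells and natural killer cells, had levels of -2.81, -2.80, -1.44 and -2.68 in the Fto -/- samples and -2.87, -3.85, -3.25 and -3.89 in the Fto +/+ samples. The genotypes did not overlap, yet Fto -/- samples 1 and 2 lay close to Fto +/+ sample 1, and the difference of 1.03 ± 0.35 SE did not pass (limma adjusted p = 0.173). Cxcr3 was above background on 4 Fto -/- arrays but 1 Fto +/+ array, so the size of this difference is uncertain, and with normexp it was 0.33. Cxcr6 had levels of -0.73, -1.31, -1.34 and -1.11 against -1.97, -1.53, -1.28 and -1.68, which overlap through Fto +/+ sample 3. Its probes differed by 0.49 ± 0.18 and 0.46 ± 0.19 SE, and neither passed (adjusted p 0.206 and 0.236 by limma).

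Ccr9, the Ccl25 receptor of thymocytes and gut-homing T cells, had levels of -1.34, -3.91, -0.27 and -1.40 in the Fto -/- samples and -4.95, -0.57, -4.08 and -3.97 in the Fto +/+ samples. The arrays high in Ccr9 were Fto -/- samples 1, 3 and 4 and Fto +/+ sample 2, so the genotypes overlapped. The same 4 arrays had Rag1 above background, and the T cell and thymocyte markers (11 of 14 tested) averaged 1.27, -1.23, 1.79 and 1.10 against -1.48, 1.54, -1.71 and -1.27 after centring each gene over the arrays. The Ccr9 difference was 1.66 ± 1.03 SE (limma adjusted p = 0.414) and, with that marker level as a covariate, -0.08. Of the 5 thymic epithelium markers Foxn1, Psmb11 and Aire were above background on no array, and Prss16 (-1.96) and Krt5 (-2.16) on Fto -/- sample 1 only. In whole tissue, fewer cells of a type cannot be told apart from less RNA per cell.

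Ccr2, the monocyte receptor for Ccl2, was above background on 3 Fto -/- arrays and 1 Fto +/+ array, with a difference of 1.03 ± 0.63 SE (limma adjusted p = 0.403). Cx3cr1, a receptor of resident macrophages and patrolling monocytes, had levels of 0.84, -2.99, -0.54 and -0.15 in the Fto -/- samples and 1.01, -1.60, 0.21 and -0.33 in the Fto +/+ samples. Sample 2 was lowest in both genotypes, and the difference of -0.53 ± 0.82 SE was smaller than its error (limma adjusted p = 0.757). A second Cx3cr1 probe differed by -0.47 ± 0.80 SE.

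Of the atypical receptors other than Ackr1, 0 of 3 passed. Ackr2, a scavenger of inflammatory CC chemokines, had levels of 0.42, 0.21, 0.27 and 0.27 in the Fto -/- samples and -0.08, -0.33, 0.25 and -0.21 in the Fto +/+ samples. Fto +/+ sample 3 overlapped the Fto -/- range, and the difference was 0.39 ± 0.13 SE (limma adjusted p = 0.174). Ackr3, a scavenger of Cxcl12, had levels of 2.93, 1.62, 2.38 and 2.18 against 3.16, 2.68, 2.94 and 2.07. Its difference of -0.43 ± 0.31 SE (limma adjusted p = 0.473) had the other sign than that of the NM_021704 probe of its ligand. Ackr4, which takes up Ccl19, Ccl21 and Ccl25, was above background on 3 Fto -/- arrays and 2 Fto +/+ arrays and differed by 0.38 ± 0.27 SE (limma adjusted p = 0.471).

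Cell markers moved between arrays beside several of these ligands. Macrophage markers (9 of 10 tested, 0 called) averaged 0.80, -0.41, 0.03 and 0.30 in Fto -/- samples 1 to 4 and 0.15, -0.01, 0.38 and -1.24 in Fto +/+ samples 1 to 4. Fto -/- sample 1, highest in macrophage markers, was also highest in Ccl2, Ccl7, Ccl11, Ccl12 and both Cxcl12 probes. Fto +/+ sample 4, lowest in those markers, was lowest in Ccl11, Ccl12, Ccl8 and the NM_021704 probe of Cxcl12. The NM_001012477 probe of Cxcl12 was lowest in Fto -/- sample 2 (1.61, against 1.70 in Fto +/+ sample 4). A covariate for the macrophage level was chosen after the data were seen. With it the differences were 0.92 for Ccl11, 1.10 for Ccl12 and 0.90 for the NM_021704 probe of Cxcl12. These passed (limma adjusted p 0.0288, 0.0491 and 0.0282) beside Ccl19 (1.14, 0.0163) and Ackr1 (0.67, 0.0261). The NM_001012477 probe of Cxcl12 did not pass (0.08, 0.767). Ccl2 (0.85, 0.363), Ccl7 (0.76, 0.299) and Ccl8 (1.29, 0.138) did not pass in that fit. With a covariate for the T cell level, Ccl19 differed by 1.25 (0.039) and Ackr1 by 0.73 (0.0514). Without the 4 arrays with Rag1, which leaves 1 Fto -/- array against 3 and takes its spread from the others, Ccl19 differed by 1.16 (0.409) and Ackr1 by 0.66 (0.485). Endothelial markers (9 of 9 tested) lay between -0.32 and 0.21 in Fto -/- arrays and between -0.15 and 0.31 in Fto +/+ arrays. Fibroblast markers (6 of 6 tested) lay between 0.01 and 0.34 and between -0.71 and 0.20. Adipocyte markers (5 of 6 tested, 0 called) lay between -0.22 and 1.59 and between -2.24 and 0.65. Their median difference was 0.86, with 2 higher at an unadjusted p under 0.05. Dendritic cell markers (4 of 6 tested, 0 called) had a median difference of 0.12, with 1 higher and 1 lower at an unadjusted p under 0.05. These were unequal in size: Cd209a was higher by 2.11 ± 0.42 SE (limma adjusted p = 0.0514), and Zbtb46 differed by -0.33 ± 0.12 SE (0.201). Mast cell markers (4 of 4 tested, 0 called, 2 at an unadjusted p under 0.05) averaged 0.71, -0.05, -0.09 and 0.91 in the Fto -/- samples and -0.86, -0.66, 0.09 and -0.05 in the Fto +/+ samples, with a median difference of 0.80. Of the 4 lymph node and high endothelial venule markers, Glycam1 and Chst4 were above background on no array and Madcam1 on 1 Fto -/- array. The fourth, Fut7, was above background on all 8 arrays, with levels of -2.68, -2.11, -2.21 and -1.10 in the Fto -/- samples and -2.92, -3.05, -2.81 and -2.75 in the Fto +/+ samples. Fut7 was higher in every Fto -/- sample and did not pass (0.86 ± 0.29 SE, limma adjusted p = 0.172). The part of fibroblasts, adipocytes, dendritic cells, mast cells and lymph node vessels in the chemokine differences was not tested.

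**Figure D4:**
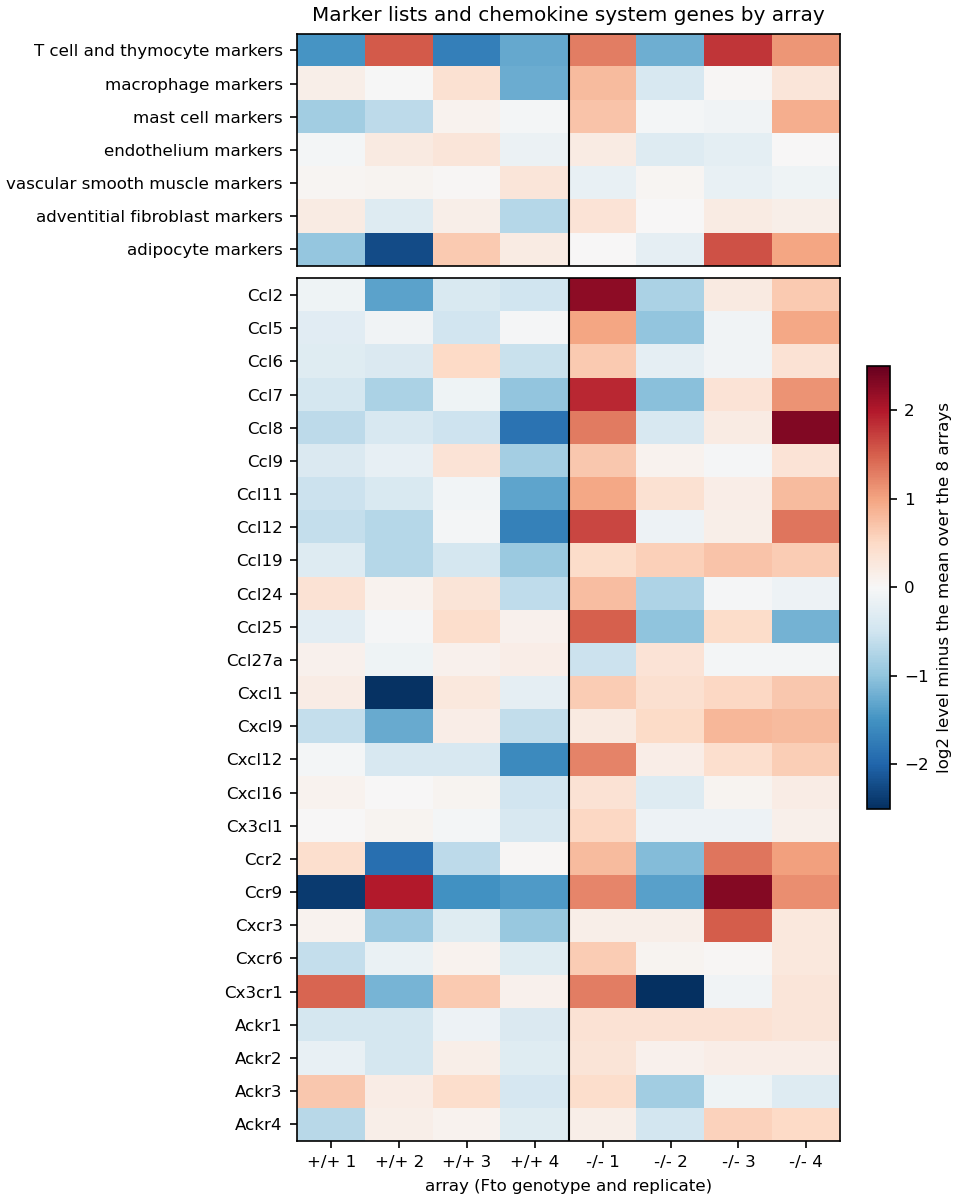
Array-by-array deviation (log2 level minus the mean over the 8 arrays; colours saturate at 2.5) of 7 marker lists (top) and of the 26 tested chemokine system genes (bottom). Ccr9 follows the T cell and thymocyte row, whose values run from -1.71 to 1.79, and Ccl19 and Ackr1 are higher on all 4 Fto -/- arrays.

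Genes that carry chemokine signals inside the cell or act on chemokines outside it gave 0 calls. Of 44 listed partner and associated genes 35 were tested, and 3 had an unadjusted p under 0.05, against 20.6% of all named genes. The smallest p values belonged to Arrb2, which encodes beta-arrestin 2 (difference -0.61 ± 0.15 SE, limma adjusted p = 0.0834), and Plcb3, which encodes a phospholipase C (-0.38 ± 0.10 SE, 0.0999). Arrb2 had levels of -0.63, -0.87, -0.72 and -0.60 in the Fto -/- samples and 0.21, -0.29, 0.07 and -0.37 in the Fto +/+ samples. The genotypes did not overlap in Arrb2, nor did they in Plcb3. Rgs1, Dock2, Elmo1, Plcb2 and Lyn were above background on no array.

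Among 30 listed genes that induce or otherwise regulate chemokine transcription (here inducer genes), 19 were tested and 0 passed, with a median difference of -0.02. The cytokine genes Tnf, Il1b, Il6, Ifng, Il4, Il13, Il17a and Lta were above background on no array. Tlr4, the lipopolysaccharide receptor, had levels of 0.59, 0.59, 0.36 and 0.44 in the Fto -/- samples and 0.72, 0.97, 0.92 and 1.06 in the Fto +/+ samples. It lay lower in every Fto -/- sample and did not pass (-0.42 ± 0.11 SE, limma adjusted p = 0.0931). Ltb, a lymphotoxin subunit that supports lymphoid stroma, had levels of -0.17, -1.53, -0.04 and -0.06 against -1.69, -0.89, -2.54 and -2.21. Its high arrays were again Fto -/- samples 1, 3 and 4, with Fto +/+ sample 2 next, and the difference was 1.38 ± 0.43 SE (limma adjusted p = 0.145).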

How the data were processed

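Each sample was read on 1 Agilent SurePrint G3 Mouse 8x60K array. The authors deposited scanner files of spot intensity, which the file headers credit to Feature Extraction 11.0.1.1. Background was subtracted from that intensity, with no scaling between arrays. A table of log2 values deposited for these arrays was centred per probe as found from the values (correlation with the scanner values 0.983 to 0.997, column medians -0.0095 to 0.0049), and served as an alternative; the sources used here do not state its normalisation. The array is annotated on mm9. Slide (1) and scan date (1) were common to the 8 arrays.

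Control spots (3671 per array) and outlier spots (126 to 189) were left out, spots of a probe were averaged, and log2 intensity was scaled to the 75th percentile of the array. Probes were named through RefSeq accessions in a GRCm38.p6 gene table: 28331 had 1 gene symbol and 27350 had none. Probes well above background on at least 4 of 8 arrays were tested with limma 3.58.1 (R 4.3.3, lmFit and eBayes, Benjamini-Hochberg) on all 8 arrays without covariates. The tested probe of highest mean stood for its gene. Where no array of a genotype was above background, the brighter mean was set against, per array, the higher of the probe's level and the lowest level above background. The resulting fold is not a strict bound, since some probes not above background read higher than that lowest level. The number of arrays limits the precision.

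Every member is counted, and 1 member and part of the listed partner and inducer genes are not reported here by name. Named with values are members called, members at an unadjusted p under 0.05, the tested members of each role, members with probes that disagree or that were read in 1 genotype only, Fto, and the 2 partner and inducer genes of smallest p. Members and lists were chosen with earlier results of these data known. Alternatives were background correction (normexp on the median spot signal, as the mean was not used here), scaling, filter, array weights, blocks and leaving out each array.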

Additional observations from a re-analysis of the deposited data

Results flagged for a closer look

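In 3 of 54 groups of 4 arrays tested (5.56%), 1 array lay far from the rest by Dixon's criterion, which chance meets in about 1 of 20 groups. Ackr1 in Fto -/- sample 4 was -1.74, where the nearest other sample was -1.69 and the highest -1.68. Cxcl16 in Fto +/+ sample 4 was -1.07, with the nearest sample at -0.58. Cxcr3 in Fto -/- sample 3 was -1.44, with the nearest sample at -2.68, and that array also had the highest T cell and thymocyte marker level (1.79).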

How the results depend on the processing

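Of 566 alternative values for single genes, 520 kept direction and side of the threshold, 17 kept direction but lost the call, 5 gained one and 24 changed sign; the causes were not tested. Called probes, 213 higher and 206 lower as reported, numbered 129 higher when scaled to the array median, 61 and 34 without a filter, and 757 and 801 with array weights. With slide row as a block they numbered 33 and 13, and leaving out 1 array gave 53 to 494 higher and 45 to 381 lower, most without Fto +/+ sample 4. Alternatives chosen after seeing the data gave 0 and 0 within row 1, 1 and 0 within row 2, 0 and 0 without the 4 arrays with Rag1 (2105, 1387 and 2282 probes at an unadjusted limma p under 0.05), 489 and 377 with the macrophage level and 73 and 52 with the T cell level. Member genes higher, 2 as reported, numbered 1 with normexp, 1 without a filter and 0 with slide row. Leaving out 1 array gave 1 to 3. The 3 came without Fto +/+ sample 3 and include Cxcl9, which was above background in Fto -/- samples only. Such genes numbered 5 with the macrophage level and 1 with the T cell level. The member median was 0.33 with normexp and 0.22 without the Rag1 arrays. Partner genes lower, 0 as reported, numbered 2 with array weights, 0 to 1 without 1 array and 1 with the macrophage level; with array weights 1 inducer was higher and 1 lower. Fto differed by -3.03 and -3.33 within the rows and by -2.66 without the Rag1 arrays (adjusted p 0.145, 0.315 and 0.126), each with 1 array in a genotype.

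With the replicate number as a block (replicate block), 89 probes were higher and 42 lower, and 0 members were called: Ccl19 differed by 1.20 (adjusted p = 0.0513) and Ackr1 by 0.69 (0.0721). Same-numbered samples share only a number: their deviations correlated at 0.15, -0.02, -0.02 and -0.04.

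Signs changed in genes that did not pass. Without the Rag1 arrays the values were -0.17 (Ackr4), -0.48 (Ccl2), 0.21 (Ccl27a), -0.73 (Ccl5), -0.10 (Ccl6), -0.54 (Ccl7), -1.03 (Ccr2) and -0.22 (Cxcl16). Within row 1 they were 0.58 (Ccl25), -0.08 (Ccr2) and -0.06 (Cxcl16), and within row 2 0.42 (Cx3cr1). Ccl25 was 0.01 with normexp, Cxcl16 was -0.01 with the macrophage level, and with the T cell level Ccl27a was 0.04 and Ccr9 -0.08. Leaving out 1 array gave -0.34 to 0.18 for Ccl24, -0.64 to 0.25 for Ccl25, -0.28 to 0.01 for Ccl27a and -1.05 to 0.23 for Cx3cr1.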
